A study of Mus musculus with 8 samples.

Results

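The genes described are Trp53, which encodes the transcription factor p53, and 9 genes that p53 is known to switch on: Cdkn1a, Mdm2, Ccng1, Phlda3, Trp53inp1, Sesn1, Zmat3, Aen and Eda2r. They were taken by gene symbol and make up 10 of the 52661 genes in the deposited tables. All 10 symbols were found, and 9 of the genes passed the filter on low counts, the exception being Eda2r. The cells were C57BL/6 mouse intraepithelial lymphocytes, the immune cells that sit among the epithelial cells of the gut lining, sorted for the leukocyte surface protein CD45. They were kept for 24 h at 37 °C in RPMI medium with 10% serum, and recombinant osteopontin was added at 2 µg/ml for 4 libraries (osteopontin) and left out for 4 (null). Both groups therefore share the sort, the serum and the day in culture, and no uncultured cells were part of the comparison. The sex and age of the mice, and whether cells of several mice were pooled, are not given in the labels. Libraries of both groups are named 1, 2, A and B. The labels do not tie a name to an animal, a culture or a day; the p-values below therefore rest on the variation among libraries, part of which may be technical.

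In resting cells p53 is made all the time and destroyed just as steadily, because Mdm2 marks it for degradation. Damage to DNA and other stresses stabilise the protein, which then binds paired copies of a short DNA half-site near its target genes. The targets include Cdkn1a, whose product p21 stops cyclin-dependent kinases and so the cell cycle, and Mdm2 itself, which closes a feedback loop. Because p53 is controlled mainly as a protein, the level of its mRNA says little about its activity, and the transcripts of its targets are the usual readout. Osteopontin is a phosphoprotein that cells release and that engages integrins and CD44. The comparison asks whether transcripts of p53 and these targets differed after a day with osteopontin.

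Library totals ran from 49108969 to 71292125 estimated reads with osteopontin and from 57492806 to 71399847 in null libraries, and 3 reads corresponded to 0.0420 to 0.0611 CPM, the reads of a gene scaled to a common library total. That floor covers counting error only. The 10 markers of T cells and intraepithelial lymphocytes, Ptprc, Itgae and Cd8a among them, were detected in every library and summed to 6291 to 6724 CPM with osteopontin and 6028 to 6481 CPM in null libraries. Libraries differed in ways that the treatment did not divide cleanly. The 8 fibroblast markers summed to 7.04 to 25.4 CPM with osteopontin, against 320.7 CPM in null library 1, 175.1 in null library A and 11.7 and 6.78 in null libraries 2 and B. The 8 enterocyte markers summed to 79.4 CPM in osteopontin library B and 69.7 CPM in null library B. In the other 6 libraries that sum was 39.9 to 47.1 CPM. Epcam alone gave 37.8 to 48.3 CPM of it over the osteopontin libraries and 37.9 to 43.6 CPM over the null libraries. The 7 rapidly induced stress genes, such as Fos and Hspa1a, summed to 31.3 to 41.8 CPM in osteopontin libraries 1, 2 and A and to 172.9 CPM in osteopontin library B, against 151.2 to 197.1 CPM in null libraries. Markers of other lymphoid and myeloid cells were also detected. The 3 plasma cell genes Igha, Igkc and Jchain summed to 3798 to 8459 CPM with osteopontin and 2994 to 9257 CPM in null libraries, and the 6 B cell markers to 284.5 to 780.1 CPM with osteopontin, lowest in library B, and 623.9 to 821.6 CPM in null libraries. The 7 endothelial markers summed to 58.1 to 115.2 CPM with osteopontin and 76.5 to 121.7 CPM in null libraries. Pecam1 alone gave 56.9 to 78.5 CPM of that sum with osteopontin and 71.6 to 85.0 CPM in null libraries. Cldn5 was at most 1.24 and 2.51 CPM there. The 8 macrophage and dendritic cell markers summed to 76.4 to 162.5 CPM with osteopontin and 84.1 to 157.0 CPM in null libraries. Itgax alone gave 66.6 to 119.8 CPM of that sum with osteopontin and 76.8 to 124.2 CPM in null libraries. C1qa was at most 0.351 and 0.121 CPM there. Each of these sums rests mostly on a single gene and does not show the cell type in every library. The levels below are therefore those of a mixture, which may include transcripts of the cell types named above. The part of each cell type in these levels was not tested. In bulk RNA, fewer cells of a type and less RNA per cell cannot be told apart.

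The start regions of Cdkn1a, Ccng1 and Sesn1 are shown because they hold or lack the half-site that p53 binds, and because the reads of Cdkn1a and Sesn1 fall on transcripts with different starts. RefSeq sequences of build GRCm38.p6 were used, 250 bases before to 50 after each start, and 11 windows were found for 8 of the genes. Trp53inp1 and Zmat3 had no entry. The p53 half-site was searched as its 10-letter consensus on both strands (it reads the same on either strand). An adjacent pair was searched as 20 letters with up to 2 mismatches, where the fixed C and G of each half-site had to match. Capitals mark each half-site and each adjacent pair. The first Cdkn1a window lies at chr17:29090729-29091028 on the plus strand and the second at chr17:29093519-29093818 on the plus strand. The Ccng1 window lies at chr11:40755237-40755536 on the minus strand and the Sesn1 window at chr10:41887189-41887488 on the plus strand.
Cdkn1a, upstream start: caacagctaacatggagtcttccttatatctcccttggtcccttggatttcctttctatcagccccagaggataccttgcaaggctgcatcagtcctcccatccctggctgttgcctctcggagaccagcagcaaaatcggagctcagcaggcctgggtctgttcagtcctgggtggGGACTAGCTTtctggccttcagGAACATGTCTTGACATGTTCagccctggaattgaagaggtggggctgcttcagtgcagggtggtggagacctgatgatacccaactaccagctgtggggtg
Cdkn1a, downstream start: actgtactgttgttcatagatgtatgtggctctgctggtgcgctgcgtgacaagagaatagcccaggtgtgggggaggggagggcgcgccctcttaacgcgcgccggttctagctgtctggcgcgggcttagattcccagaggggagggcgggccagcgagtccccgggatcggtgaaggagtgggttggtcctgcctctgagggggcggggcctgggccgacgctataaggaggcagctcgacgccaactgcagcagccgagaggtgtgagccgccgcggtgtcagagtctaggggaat
Ccng1: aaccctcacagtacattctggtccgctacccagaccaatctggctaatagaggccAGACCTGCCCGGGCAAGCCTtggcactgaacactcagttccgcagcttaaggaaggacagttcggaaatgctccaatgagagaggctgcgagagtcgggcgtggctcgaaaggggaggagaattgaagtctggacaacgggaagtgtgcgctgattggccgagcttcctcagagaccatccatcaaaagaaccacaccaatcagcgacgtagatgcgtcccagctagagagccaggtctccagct
Sesn1, downstream start: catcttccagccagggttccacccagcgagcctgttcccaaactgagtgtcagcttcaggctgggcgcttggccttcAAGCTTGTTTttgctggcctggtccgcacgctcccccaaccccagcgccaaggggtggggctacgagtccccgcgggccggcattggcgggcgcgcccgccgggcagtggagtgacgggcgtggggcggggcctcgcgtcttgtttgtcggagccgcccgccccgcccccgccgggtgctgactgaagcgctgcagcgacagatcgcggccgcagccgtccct

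A half-site was found in 7 of the 11 windows, those of Trp53, Cdkn1a (upstream start), Mdm2, Ccng1, Sesn1 (downstream start) and 2 overlapping windows of Aen that share 1 site. Of 32851 mouse promoter windows of the same length, 8.356% held a half-site. An adjacent pair was found in 2 windows, the upstream one of Cdkn1a and that of Ccng1, each with 1 mismatch. The Cdkn1a pair ends 31 bases before the start and the Ccng1 pair 175 bases before it. Over all windows, 0.3257% held an adjacent pair under the same rule of up to 2 mismatches, and 0.06697% one with at most 1. The other windows, those of Phlda3, Eda2r, the upstream start of Sesn1 and the downstream start of Cdkn1a, held no match. A match describes the letters in the window and does not show that p53 was bound.

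Transcripts of p53 were present in every library and did not differ with osteopontin beyond the spread between libraries. Trp53 (chr11:69580359-69591873, plus strand, GENCODE M21 on GRCm38) stood at 138.3, 135.1, 120.6 and 153.0 CPM in osteopontin libraries 1, 2, A and B, against 133.2, 133.3, 125.2 and 138.6 CPM in the null libraries of those names. In both groups library A was lowest and library B highest, and the ranges overlapped. The mean was 136.8 ± 13.3 CPM with osteopontin and 132.6 ± 5.52 CPM in null libraries (SD, n = 4 each). The log2 fold change was 0.04 with an SE of 0.08 and a 95% interval of -0.12 to 0.21 (edgeR, adjusted p = 1.00), so that the interval covers a change between 0.922-fold and 1.15-fold. The direction rested on osteopontin library B, since without it the log2 fold change was -0.02.

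Cdkn1a, the cell cycle inhibitor, was one of the 2 genes with the widest scatter and also showed no difference that passed the test. Cdkn1a (chr17:29090976-29100727, plus strand) stood at 10.3, 9.66, 12.1 and 14.2 CPM in osteopontin libraries 1, 2, A and B, against 7.41, 13.1, 13.2 and 18.7 CPM in null libraries 1, 2, A and B. Library B was the highest in each group, and the null range contained the whole osteopontin range. The mean was 11.6 ± 2.02 CPM with osteopontin and 13.1 ± 4.62 CPM in null libraries (SD, n = 4 each), a log2 fold change of -0.18 with an SE of 0.25 and a 95% interval of -0.72 to 0.36 (edgeR, adjusted p = 1.00). That interval reaches from 0.607-fold to 1.28-fold, and the spread between libraries does not allow a closer statement. Without null library B the log2 fold change was 0.04, and without both B libraries it was -0.07. The enterocyte and endothelial sums were also highest in library B of each group. The endothelial sum was nearly as high in null library 2 (119.0 CPM, against 121.7 CPM in null library B), where Cdkn1a stood at 13.1 CPM. The part of either sum in the level of Cdkn1a was not tested.

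**Figure D1:**
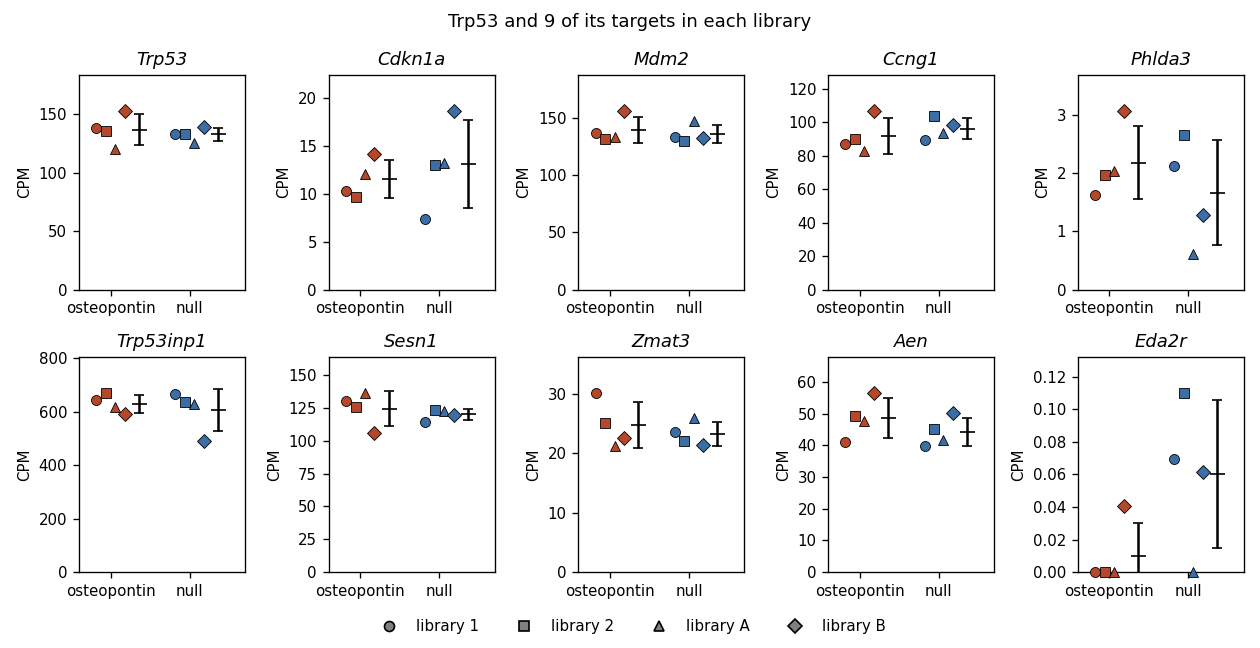
Level of each gene in CPM (vertical axis, from 0, own scale per gene) in the 4 osteopontin libraries (left, red) and the 4 null libraries (right, blue); symbols name the library and the bars give the mean and SD. The groups overlap for all 10 genes, and library B is the highest of both groups for Trp53, Cdkn1a and Aen.

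The feedback genes around p53 did not differ beyond the spread between libraries either. Mdm2 (chr10:117688875-117710758, minus strand), the ubiquitin ligase that degrades p53, stood at 136.3, 131.1, 133.3 and 156.1 CPM with osteopontin, against 132.6, 129.7, 147.3 and 132.5 CPM in null libraries. Ccng1 (chr11:40748552-40755311, minus strand), which encodes cyclin G1, a partner of protein phosphatase 2A that acts on Mdm2, stood at 87.1, 90.2, 82.7 and 107.1 CPM with osteopontin, against 89.3, 104.0, 93.5 and 98.4 CPM in null libraries. Osteopontin library B was the highest of its group for both genes, while the highest null library was A for Mdm2 and 2 for Ccng1. The log2 fold change was 0.04 for Mdm2 (SE 0.07, 95% interval -0.12 to 0.20) and -0.07 for Ccng1 (SE 0.09, interval -0.26 to 0.12), and neither passed (edgeR, adjusted p = 1.00). That of Mdm2 was -0.02 without osteopontin library B and -0.03 without both B libraries, and 0.20 with an effective-length offset (unadjusted p = 0.0674 and adjusted p = 1.00 in edgeR). That of Ccng1 was -0.15 without osteopontin library B (unadjusted p = 0.0721 and adjusted p = 1.00 in edgeR).

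Phlda3 (chr1:135766119-135769136, plus strand), which encodes a small membrane-binding protein that holds back the kinase Akt, was a low transcript. It stood at 1.63, 1.96, 2.04 and 3.07 CPM in osteopontin libraries 1, 2, A and B, against 2.11, 2.65, 0.614 and 1.27 CPM in the null libraries, from 44 to 169 reads. Null library A was the lowest of all and osteopontin library B the highest. The log2 fold change of 0.39 had an SE of 0.57 and an interval of -0.83 to 1.60, so that for Phlda3 a change of 2-fold lies inside the interval and these libraries do not settle the direction (edgeR, adjusted p = 1.00).

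The targets that act on metabolism, redox balance and cell death did not differ either. Trp53inp1 (chr4:11156431-11174379, plus strand), a stress-induced protein that promotes autophagy and p53-dependent death, stood at 644.0, 669.1, 617.2 and 591.0 CPM with osteopontin, against 666.0, 636.3, 628.8 and 489.9 CPM in null libraries. Library B was the lowest of each group, which sets Trp53inp1 against Trp53, Cdkn1a and Aen. Its log2 fold change was 0.06 (SE 0.08, interval -0.12 to 0.24), and -0.03 without null library B. Sesn1 (chr10:41809935-41908424, plus strand), a sestrin that restrains the growth kinase complex mTORC1, stood at 130.0, 125.7, 136.2 and 105.9 CPM with osteopontin, against 114.5, 123.5, 122.9 and 119.5 CPM in null libraries. Osteopontin libraries held both its highest and its lowest value, and the log2 fold change was 0.05 (SE 0.08, interval -0.12 to 0.22).

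Zmat3 (chr3:32334792-32366014, minus strand), an RNA-binding zinc finger protein, stood at 30.1, 25.1, 21.3 and 22.5 CPM with osteopontin, against 23.5, 22.1, 25.8 and 21.4 CPM in null libraries. Osteopontin library 1 was the highest, and the log2 fold change of 0.09 (SE 0.15, interval -0.22 to 0.41) was -0.02 without it. Aen (chr7:78895854-78911209, plus strand), a nuclease that promotes DNA breakdown in dying cells, stood at 41.2, 49.3, 47.8 and 56.5 CPM with osteopontin, against 39.9, 45.1, 41.6 and 50.1 CPM in null libraries. Library 1 was the lowest and library B the highest in each group. Of the 9 genes, Aen had the smallest unadjusted p, 0.248, with a log2 fold change of 0.14 (SE 0.12, interval -0.11 to 0.39; edgeR, adjusted p = 1.00).

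Eda2r (chrX:97333840-97377216, minus strand), a receptor of the tumour necrosis factor family, was at or near the counting floor. It had 0, 0, 0 and 2 reads in osteopontin libraries 1, 2, A and B, against 4, 7, 0 and 4 reads in the null libraries. It did not pass the filter, so the main comparison has no value for it. Fitted without a filter, its unadjusted p was 0.331 in edgeR (adjusted p = 0.804) and 0.427 in DESeq2, which gave no adjusted p, and at so few reads no direction is given.

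Over the 9 genes tested, 0 passed an adjusted p of 0.05, as did 0% of all 18631 genes tested in the same edgeR fit. At an unadjusted p under 0.05 the counts were 0 of 9 and 3.93% of all genes, and DESeq2 also called 0 of the 9, against 0.395% of all genes to which it gave an adjusted p. No gene of the 9 had groups that did not overlap, against 3.47% of all genes. The fitted change was above 0 for 7 and below 0 for 2, with a median log2 fold change of 0.05, against 0.00 over all genes. The intervals say how much change the libraries leave room for. They lay within a 2-fold change either way for 8 genes, all but Phlda3, within 1.5-fold for 7, all but Phlda3 and Cdkn1a, and within 1.25-fold for 5. Over all genes, 43.3% of intervals lay within 1.5-fold. That share was not matched to the levels of the 9 genes, so the comparison is no measure of constancy. No share over all genes was taken for 2-fold or 1.25-fold.

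**Figure D2:**
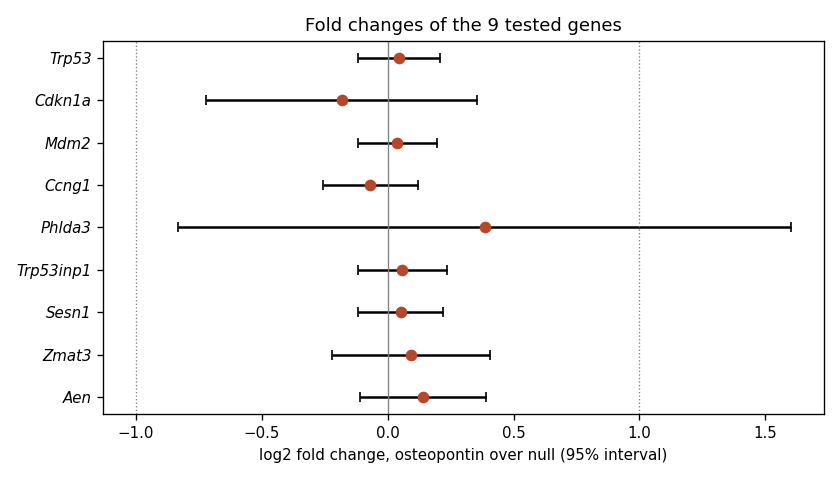
Log2 fold change of osteopontin over null (horizontal axis) for the 9 genes tested, with 95% intervals from edgeR; dotted lines mark a 2-fold change. Every interval includes 0, from the narrow one of Mdm2 (-0.12 to 0.20) to that of Phlda3 (-0.83 to 1.60).

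The scatter between libraries separated Cdkn1a and Phlda3 from the rest. Over the 8 libraries the coefficient of variation of the CPM was 27.6% for Cdkn1a and 40.0% for Phlda3, and 6.80% to 12.5% for the other 7. The libraries named B were the highest of both groups for 3 of the 9 genes (Trp53, Cdkn1a and Aen), as they were for 11.5% of all genes. They were the lowest of both groups for Trp53inp1, as they were for 14.0% of all genes.

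Per length, in TPM (abundance corrected for transcript length), the 10 genes spread widely and kept much the same order in all libraries. Trp53inp1 was the most abundant with 219.2 ± 6.85 TPM with osteopontin and 193.1 ± 28.6 TPM in null libraries (SD, n = 4 each). Trp53 followed with 117.3 ± 17.7 and 105.2 ± 3.91 TPM in osteopontin and null libraries, Mdm2 with 105.0 ± 5.94 and 89.5 ± 11.3 TPM, and Sesn1 with 70.6 ± 6.59 and 73.5 ± 13.4 TPM. These 3 were not cleanly ordered, since Trp53 was above Mdm2 in 6 of 8 libraries and Mdm2 above Sesn1 in 7 of 8. The exception for Sesn1 was null library 2, with Sesn1 at 93.4 TPM and Mdm2 at 74.9 TPM. Of that Sesn1 value, 24.5 TPM came from 14 reads on Sesn1-203, a transcript of 90 bases. The null mean and SD of Sesn1 include it, so they do not give a direction for Sesn1. Ccng1 had 39.9 ± 5.60 TPM with osteopontin and 41.0 ± 2.18 TPM in null libraries, and Aen 37.9 ± 3.64 and 35.6 ± 4.86 TPM. These 2 overlapped as well, with Ccng1 above Aen in 5 of 8 libraries.

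Cdkn1a came well below them, at 9.77 ± 1.92 TPM with osteopontin and 11.3 ± 3.67 TPM in null libraries. Zmat3 had 5.21 ± 1.24 and 4.47 ± 0.341 TPM and Phlda3 2.55 ± 0.786 and 2.02 ± 0.981 TPM in osteopontin and null libraries. Aen exceeded Cdkn1a at least 2.60-fold in every library, whereas the ranges of Cdkn1a and Zmat3 overlapped, although Cdkn1a was above Zmat3 in all 8 libraries. Eda2r was at most 0.0426 TPM in any library. The most abundant gene, Trp53inp1, exceeded Phlda3 90.2-fold in mean TPM.

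The genes were counted over 46 transcripts, and the share of each gene's TPM on single transcripts was compared as a second readout. Of 15 shares that varied between libraries, 0 passed an adjusted p of 0.05 (exact permutation test over the 70 arrangements of 4 against 4 libraries, two-sided, whose smallest p is 0.0286). With that smallest p a share could pass only if most of the 15 separated completely, so the count of 0 was set by the design and is no sign of stability. The groups did not overlap for 2 of them, the share of Trp53 on Trp53-201 and that of Cdkn1a on Cdkn1a-201.

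Trp53-201 carried 66.6%, 69.6%, 61.8% and 66.6% of Trp53 TPM in osteopontin libraries 1, 2, A and B, against 22.6%, 55.7%, 24.8% and 22.8% in the null libraries. Trp53-203 carried 9.63%, 1.38%, 0.000630% and 0.0659% in those osteopontin libraries, against 49.5%, 18.7%, 53.3% and 52.3% in the null libraries. Trp53-203 thus exceeded Trp53-201 in null libraries 1, A and B, while in null library 2 Trp53-201 led, as it did with osteopontin. The exact p was 0.0286 for the share on Trp53-201 (permutation, adjusted p = 0.214). Trp53-201 is 1772 bases long and Trp53-203 1771, and Trp53-203 is contained whole in Trp53-201, which has 1 base more. Reads on all but that 1 base cannot be assigned to either. Summed, the pair carried 76.2%, 70.9%, 61.8% and 66.6% with osteopontin, against 72.1%, 74.4%, 78.1% and 75.1% in null libraries, ranges that overlap (difference -6.01 percentage points, exact permutation p = 0.143). The sum was chosen after the shares had been seen.

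**Figure D3:**
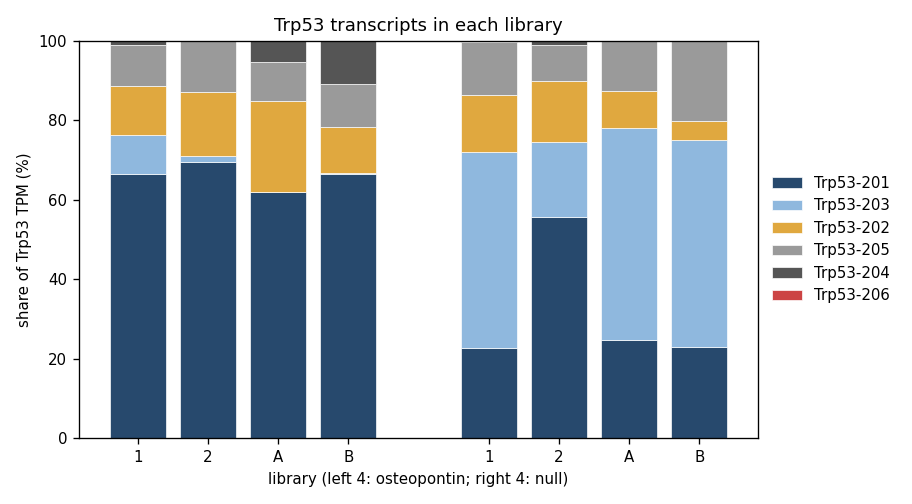
Share of Trp53 TPM (vertical axis, %) on each of its 6 annotated transcripts in the 4 osteopontin libraries (left) and the 4 null libraries (right). Trp53-203 holds 18.7% to 53.3% in null libraries and at most 9.63% with osteopontin, while the dark and light blue parts together reach 61.8% to 78.1% in every library.

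The remaining Trp53 transcripts differ by more sequence. Trp53-202, which has 96 bases that Trp53-201 lacks, carried 12.3%, 16.0%, 23.1% and 11.6% with osteopontin, against 14.2%, 15.4%, 9.37% and 4.56% in null libraries. The ranges overlapped. Transcripts annotated as protein-coding held 84.7% ± 4.53 of Trp53 TPM with osteopontin and 85.8% ± 4.33 in null libraries (SD, n = 4 each; exact permutation p = 0.629).

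Nearly all Cdkn1a signal was on Cdkn1a-201, which begins at the downstream start shown above, whose window lacks a half-site. That window covers only 300 bases and does not show that Cdkn1a-201 has no p53 site. The upstream window with the adjacent pair ends at 29091028, upstream of the Cdkn1a-201 start at 29093769 on the same strand. Cdkn1a-201 carried 99.3%, 100%, 100% and 99.4% of Cdkn1a TPM with osteopontin, against 90.5%, 84.6%, 98.1% and 98.9% in null libraries (exact permutation p = 0.0286, adjusted p = 0.214). The gap between the groups is that of 99.3% against 98.9% at its narrowest. The rest was few reads. Cdkn1a-203 had 2, 0, 0 and 2 reads with osteopontin, against 12, 54, 0 and 5 in null libraries, and Cdkn1a-202, from the upstream start with the adjacent pair, had 0 reads in all 4 osteopontin libraries and 4, 0, 6 and 0 in the null libraries. These transcripts share sequence with Cdkn1a-201, so that such numbers are estimates.

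Sesn1 was read mainly from its downstream start, the Sesn1 window printed above. Sesn1-201 carried 88.0%, 90.7%, 91.4% and 87.2% of Sesn1 TPM with osteopontin, against 88.9%, 68.5%, 90.6% and 89.5% in null libraries. The low value of null library 2 came with 14 reads on Sesn1-203, a transcript of 90 bases, which the length correction turned into 24.5 TPM. Sesn1-202 is annotated from position 41809935, upstream of both Sesn1 windows searched, so its own start was not searched. By estimated reads it held 12.4% to 18.1% with osteopontin and 10.3% to 15.8% in null libraries. The 2 transcripts share 2447 bases.

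Zmat3 showed a switch that went with the library name and not with the treatment. Zmat3-201 carried 78.9%, 91.2% and 90.9% of Zmat3 TPM in osteopontin libraries 1, 2 and A and 0% in osteopontin library B, against 90.7%, 94.4% and 97.3% in null libraries 1, 2 and A and 8.22% in null library B. In the 2 B libraries Zmat3-203 carried 88.4% with osteopontin and 82.1% in null. Zmat3-203 lacks 125 of the 7797 bases of Zmat3-201 and is otherwise identical to it. Summed, the pair carried 87.4% ± 5.81 with osteopontin and 93.3% ± 3.22 in null libraries (SD, n = 4 each; exact permutation p = 0.143), a sum also chosen after the shares had been seen.

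The other shares overlapped between the groups. Mdm2-201 held 37.3% ± 7.44 of Mdm2 TPM with osteopontin and 47.3% ± 11.6 in null libraries (exact permutation p = 0.257), and Aen-201 41.5% ± 17.4 of Aen TPM with osteopontin and 57.8% ± 11.8 in null libraries (exact permutation p = 0.2; SD, n = 4 each). Trp53inp1-201 held 47.1% ± 8.17 with osteopontin and 49.5% ± 3.72 in null libraries, with osteopontin library B lowest at 35.0%. Ccng1 was on 1 transcript throughout. Phlda3 was on Phlda3-201 alone in 7 libraries, the exception being null library B with 65.4%.

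Genes that act with or beside p53 were taken from 4 lists. Of 86 tested genes on them, 0 passed (edgeR, smallest adjusted p = 1.00). At an unadjusted p under 0.05 there were 8, or 9.30%, against 3.93% of all genes, and DESeq2 gave 10 at that unadjusted level and called 0. The groups did not overlap for 4 genes that were higher with osteopontin and 4 that were lower, against 1.89% and 1.58% of all genes. None of this was tested as a list. The lists were chosen with earlier results of these data known, so these shares cannot show an excess over all genes.

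Among the 19 tested regulators of p53 the fitted change was above 0 for 13 and below 0 for 6, with a median log2 fold change of 0.05. Mdm4, the relative of Mdm2 that binds p53 and masks its activation domain, stood at 512.4, 535.4, 546.1 and 548.5 CPM with osteopontin, against 475.2, 408.1, 498.2 and 436.9 CPM in null libraries. Every osteopontin library was above every null library. The log2 fold change was 0.24 with an SE of 0.07 and an interval of 0.09 to 0.38, at an unadjusted p of 0.00292 and an adjusted p of 1.00 (edgeR), with an adjusted p of 0.0854 in DESeq2. It was above 0 in all 18 alternatives, from 0.19 to 0.37. These alternatives reuse the same libraries, whose groups do not overlap, so the shared sign is no further support. Mdm4 did not pass over all genes tested.

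Wrap53, which lies head to head with Trp53 on the opposite strand and encodes a telomerase and Cajal body protein, stood at 35.3, 31.7, 33.7 and 40.9 CPM with osteopontin, against 27.7, 30.3, 30.8 and 28.1 CPM in null libraries. The groups did not overlap, and the log2 fold change was 0.28 with an SE of 0.12 (adjusted p = 1.00 in edgeR). The annotated spans of the 2 genes do not overlap, since Wrap53 reaches to position 69580255. Prkdc, the DNA-dependent protein kinase, had a log2 fold change of 0.31 (SE 0.13), with overlapping groups.

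Of the 32 other p53 targets, 14 had a fitted change above 0 and 18 below 0, with a median log2 fold change of -0.02. Rrm2b, the p53-induced subunit of ribonucleotide reductase, stood at 49.2, 54.6, 56.1 and 52.1 CPM with osteopontin, against 42.3, 48.4, 44.2 and 45.9 CPM in null libraries (log2 fold change 0.23, SE 0.10). Tigar, which restrains glycolysis, stood at 18.4, 16.2, 21.2 and 21.5 CPM with osteopontin, against 26.0, 22.0, 26.5 and 28.6 CPM in null libraries (log2 fold change -0.41, SE 0.15). The groups did not overlap for either gene, and the 2 differences pointed opposite ways. Polk, a translesion DNA polymerase, had a log2 fold change of 0.32 (SE 0.12) with overlapping groups, and all 3 had an edgeR adjusted p of 1.00.

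The partners of p21 and the proliferation genes gave larger fitted changes at low counts. Ccne1, cyclin E1, a partner of the kinase that p21 inhibits, stood at 4.02, 3.19, 3.10 and 1.95 CPM with osteopontin, against 4.71, 4.73, 5.23 and 9.57 CPM in null libraries. Ccna2, cyclin A2, stood at 0.843, 0.383, 0 and 0.122 CPM with osteopontin, against 1.58, 2.23, 2.21 and 2.36 CPM in null libraries. Both cyclins were below every null library in every osteopontin library and neither passed, with log2 fold changes of -0.98 (SE 0.37) and -2.62 (SE 1.04; edgeR, adjusted p = 1.00 each). For Ccne1 the size of the change moved with the B libraries, and without both it was -0.51.

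Cdk4, a kinase bound by p21, averaged 71.9 ± 3.38 CPM with osteopontin and 79.4 ± 2.97 CPM in null libraries, and Ccnd3, cyclin D3, 191.2 ± 9.97 CPM with osteopontin and 179.3 ± 2.58 CPM in null libraries (SD, n = 4 each). Their groups did not overlap either, with log2 fold changes of -0.14 and 0.09. Aurkb, a mitotic kinase, at 0.72 (SE 0.39), and Mcm5, a subunit of the replication helicase, at -0.18 (SE 0.12), overlapped between the groups. Of the 17 CDK inhibitors and partners of p21, 8 had a fitted change above 0 and 9 below 0 (median log2 fold change -0.02), and of the 18 proliferation genes 6 and 12 (median -0.15, which turned to 0.10 with an effective-length offset).

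**Figure D4:**
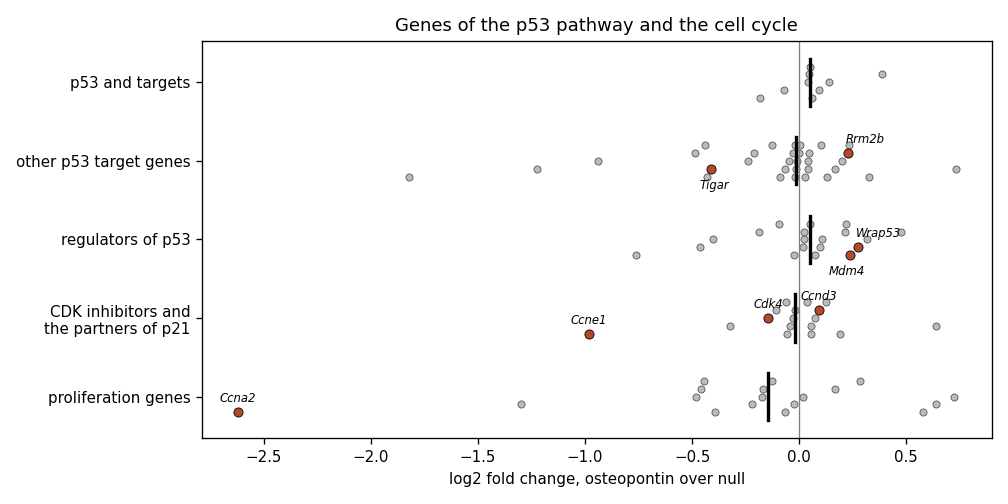
Log2 fold change of osteopontin over null (horizontal axis) for each tested gene of p53 and its targets and of the 4 other lists; red points, named, are genes whose groups did not overlap, and black bars are list medians. The 9 genes of the first row lie between -0.18 and 0.39, and Ccna2 lies furthest out at -2.62.

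The genes whose level followed that of Trp53 and Cdkn1a most closely over the 8 libraries were sought among 9628 genes, by the root mean square difference of log2(CPM + 1) after centring each gene on its own mean. For Trp53 they were Rangap1 (0.0134), Suds3 (0.0237) and H2-Q6 (0.0302), beside a spread of Trp53 itself of 0.0955 on that scale. H2-Q6 belongs to a family of near-identical genes, so that its own level is uncertain. For Cdkn1a they were Adam9 (0.113), Comtd1 (0.136) and Zfp189 (0.145), beside a spread of 0.346. Adam9 stood at 18.9, 17.1, 23.0 and 23.3 CPM with osteopontin, against 14.1, 21.3, 24.8 and 27.4 CPM in null libraries. It had the same lowest library in each group as Cdkn1a and the same highest. The genes were chosen for closeness over these same libraries, so such shared extremes largely follow from the choice.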

How the data were processed

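Per the submitters' processing notes Salmon was used. No version, transcript release or genome build is stated: these were not given in the sources used here. Per the file headers, the authors deposited for each library estimated counts, TPM and an effective length per transcript (133618 transcripts). Estimated counts were summed per gene and rounded. Deposited TPM values were summed for levels and shares, and the deposited effective length served only as an offset in 1 alternative. CPM are on TMM-scaled totals.

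The groups were tested in edgeR 4.0.16 (R 4.3.3) by its quasi-likelihood F test (two-sided, group as only term, filterByExpr with a minimum count of 10), adjusted by Benjamini-Hochberg over all 18631 genes tested, and called under 0.05. The steps were tested on simulated data. DESeq2 1.42.0 and limma 3.58.1 were alternatives, beside other scaling and filters, a replicate block and libraries left out. Shares were compared with exact permutation tests.

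Gene positions are those of GENCODE M21, in which 43 of the 46 transcripts had the same versioned identifier, the 3 of Cdkn1a being matched without version. The genes, the lists and the tests were chosen with earlier results of these data known. Named were all 10 genes, the 3 of smallest p per list and the 3 most like Trp53 and Cdkn1a; the genes whose groups did not overlap were named after their values were seen. Cop1 is in the files under its older symbol Rfwd2, and Trp63 did not pass the filter.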

Additional observations from a re-analysis of the deposited data

Results flagged for a closer look

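Values were marked where, within a group of 4 libraries, 1 library stood apart from the other 3. Of 74 groups examined, 12 were marked, and chance marks about 1 in 20. The marks are not independent: those of Phlda3 are the same transcript, and those of Sesn1 both include 14 reads on Sesn1-203. The 1 in 20 need not hold for shares at 0% or 100% or for a few reads. The counts here are therefore no measure of excess.

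Among gene levels, Mdm2 was at 147.3 CPM in null library A, with the next null library at 132.6 CPM. Eda2r was at 0.0406 CPM in osteopontin library B, with 0 in the other 3, which is 2 reads. Prkdc was at 80.2 CPM in null library 1, with the next at 58.0 CPM. Ccne1 was at 9.57 CPM in null library B, with the next at 5.23 CPM. Ccnd3 was at 206.0 CPM in osteopontin library B, with the next at 187.8 CPM.

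Among transcript shares, Trp53-201 held 55.7% of Trp53 TPM in null library 2, with the next at 24.8%. Phlda3-201, its most abundant and its protein-coding transcript, held 65.4% in null library B and 100% in the other 3. Sesn1-201 held 68.5% in null library 2, with the next at 88.9%, and the coding transcripts of Sesn1 held 73.8% there and 100% in the other 3. Zmat3-201 held 0% in osteopontin library B, with the next at 78.9%, and 8.22% in null library B, with the next at 90.7%. The marked library was a B library in 7 of the 12 cases and null library 2 in 3.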

How the results depend on the processing

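None of the 9 filtered genes was called in any of 18 alternatives, nor was a gene of the 4 other lists, and Eda2r, fitted only by DESeq2 and with no filter, was not called there. Calls among all genes were 0 in the main edgeR fit. With DESeq2 they were 21 higher and 59 lower. In other edgeR fits the calls higher and lower were 3 and 1 with no filter and 1 and 48 without both B libraries. As each library was left out in edgeR, they ran from 0 to 2 higher and 0 to 35 lower. Most of those (2 and 35) came without osteopontin library B. The cause was not tested.

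The log2 fold change of Sesn1 was -0.0930 with an effective-length offset, and without both B libraries that of Mdm2 was -0.0330 and that of Trp53inp1 -0.0018. As each library was left out, the log2 fold change ran from -0.0155 to 0.0979 for Trp53, -0.381 to 0.0381 for Cdkn1a, -0.0226 to 0.0797 for Mdm2, -0.0317 to 0.104 for Trp53inp1 and -0.0168 to 0.157 for Zmat3. It kept its sign but moved from -0.154 to -0.0260 for Ccng1, 0.109 to 0.703 for Phlda3, 0.0032 to 0.119 for Sesn1 and 0.0596 to 0.211 for Aen. The cause was not tested.

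The Trp53-201 difference was -6.01 points once summed with Trp53-203, the 1-base difference being removed. As shares of estimated reads, differences changed sign for Trp53 coding transcripts (3.25 points), Trp53inp1-201 (1.29), Sesn1-201 (-1.52) and Aen coding transcripts (2.28). With each library left out, they ran from -3.14 to 1.03 for Trp53 coding, -4.41 to 1.61 for Trp53inp1-201, -0.36 to 7.01 for Sesn1-201, 0 to 8.73 for Sesn1 coding, 0 to 11.5 for Phlda3, -28.9 to 14.4 for Zmat3-201, -3.08 to 0.35 for Zmat3 coding and -6.57 to 4.11 for Aen coding.

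The deviations of same-named libraries correlated weakly, at 0.0712, 0.0485, 0.0437 and 0.123 for 1, 2, A and B. The libraries named B were the highest of both groups for 11.5% of all genes and the lowest of both for 14.0%. These values cannot settle whether same-named libraries were paired, and the labels do not say. With the replicate name as a block, 0 of the 9 genes, 0 list genes and 0 genes in all were called, with 997 at an unadjusted p under 0.05, and the smallest possible exact p of a share was 0.125, above the threshold. Depth limits Eda2r, at 0 to 7 reads. The widest spreads between libraries among the 9 genes were those of Phlda3 and Cdkn1a.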
